A study of Mus musculus with 12 samples.

Results

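The 35 genes described here build and run the DNA replication machinery or drive entry into S phase, and were taken as a list of mouse gene symbols matched to Ensembl identifiers. They are 35 of 54146 gene identifiers counted, and all 35 were among the 14283 genes that had enough counts to be tested. The list was divided by role into 14 genes for licensing and origin firing, 9 for polymerases and Okazaki fragment processing, 4 for nucleotide supply, 4 for histone supply and chromatin copying, and 4 for E2F factors and E cyclins. RNA was sequenced from BMEL cells, a line of bipotential embryonic liver progenitors that can form hepatocyte-like and bile duct-like cells, established from a mouse with floxed Cdk8 alleles. All groups were in exponential growth on collagen, in medium with serum, insulin, IGFII and EGF. The 4 groups of 3 libraries were wild-type cells without transformation (untransformed), wild-type cells carrying H-RasG12V, an activated form of a Ras GTPase (RasG12V), and H-RasG12V cells that were Cdk8 -/- (Cdk8 knockout) or Cdk19 -/- (Cdk19 knockout), 2 paralogous kinases of the Mediator complex. The labels give each group as the same cell line, and do not say whether the libraries of a group came from separate cultures or clones. The p-values therefore measure the spread between these libraries, which may be technical. That spread was estimated over all 4 groups together, so a comparison of 2 groups also draws on the other groups.

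In each cell cycle, the origin recognition complex, Cdc6 and Cdt1 load the Mcm2 to Mcm7 helicase onto DNA in G1. Kinases then join Cdc45 and the GINS complex to that helicase, and polymerases copy the opened strands around the Pcna clamp. E2F transcription factors, held in check by the retinoblastoma family until cyclin-dependent kinases phosphorylate it, activate most of these genes at the G1 to S transition, so their RNA is commonly used as a readout of how many cells of a culture are cycling. In RNA from a whole culture, fewer cells in S phase and less RNA per cell cannot be told apart.

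The libraries held 24823560 to 36879661 gene counts, and levels are given as CPM, gene counts scaled to a common library depth, with the TMM factor for differences in library composition. The liver progenitor markers were detected throughout: 15 of the 16 listed passed the filter on low counts, and together they reached 6140 to 9600 CPM. Markers of other cell types were low, at 0.745 to 5.27 CPM summed for stellate cells and fibroblasts, 33.6 to 60.4 for macrophages and leukocytes, 0.284 to 0.702 for endothelium and 0.185 to 0.663 for erythroid cells. Adgre1, Cd3e, C1qa, Lum, Kdr, Cldn5, Hba-a1 and Hbb-bs had no count in any library. Hras stood at 50.0 ± 8.56 CPM (SD, n = 3) in untransformed cells and between 422 and 453 CPM in the 3 transformed groups. Cdk8 stood at 54.5 ± 3.13 CPM (SD, n = 3) in RasG12V cells and 42.8 ± 1.30 in the Cdk8 knockout, and Cdk19 at 75.1 ± 16 and, in the Cdk19 knockout, 49.8 ± 4.21. A count over a whole gene also includes exons outside a deletion, so these levels do not show how much intact transcript was left. Neither kinase passed the test against RasG12V with 12 libraries, with adjusted p of 0.415 for Cdk8 and 0.243 for Cdk19 (edgeR's quasi-likelihood test, Benjamini-Hochberg).

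Replicate 3 of the RasG12V group stood apart for these genes, and replicate 3 of the untransformed group did so to a smaller extent. The 35 genes together summed to 2057 CPM in RasG12V replicate 3 against 4194 and 4146 CPM in replicates 1 and 2, and to 3892 CPM in untransformed replicate 3 against 4821 and 5054. The 6 knockout libraries lay between 3881 and 4327 CPM. In the Cdk19 knockout replicate 3 was below the mean of replicates 1 and 2 for 31 of 35 genes (median log2 ratio -0.153), a smaller shift. In the Cdk8 knockout it was below for 26 of 35 (-0.046), and replicate 2 was below its other replicates for 23 of 35 (-0.044). Among all 14283 genes tested, 7226 were below in Cdk19 knockout replicate 3 and 7215 in Cdk8 knockout replicate 3. The counts of the 35 genes that passed are given with all 12 libraries and again without both the RasG12V and the untransformed replicate 3, that is over 10 libraries. These libraries were singled out for their low values of the same genes. Leaving out the untransformed one raises the untransformed mean of most of the 35 and so moves a comparison with untransformed cells towards lower, and leaving out the RasG12V one raises the RasG12V mean. Values over 10 libraries therefore depend on that choice and are not independent support.

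Many promoters of these genes held an E2F motif. Promoter windows of 250 bases before to 50 bases after the transcript start, from RefSeq on GRCm38.p6, were found for 30 of the 35 genes. These genes had 36 windows, because some have several starts, and a gene was counted when any of its windows held the motif. The consensus was searched in 4 forms on both strands, TTTCCCGC, TTTCGCGC, TTTGCCGC and TTTGGCGC. It occurred in 13 of the 30 (43.3%), against 2.6% of the 27025 genes with such a window. A looser form, with 1 T fewer at the start of each of the 4 spellings and so including every consensus match, occurred in 21 of 30 (70.0%) against 10.9%. The CCAAT box, searched as CCAAT on both strands, occurred in 20 (66.7%) against 41.1%. The CHR element of mitotic genes, TTTGAA on both strands, occurred in 5 (16.7%) against 20.2%. These matches describe the sequence and do not show binding. The windows below each show 1 match, from 5 genes that were lower in RasG12V cells and from Orc1 and Pola1, which were not. Capitals mark that match; Mcm5, Mcm7 and Rfc3 each hold a second match that is not in capitals here. Each sequence is printed 5′ to 3′ on the strand that reads TTT.
Cdt1: actaccttTTTGGCGCcatggcgc
Mcm5: ccaagaacTTTCGCGCcaaaacgt
Mcm7: tgacgacgTTTCGCGCcaatttcg
Rfc3: tcgcacgcTTTCGCGCtcgcggga
Lig1: cacacagaTTTCGCGCgcactttg
Orc1: agaaaactTTTCGCGCcactaacc
Pola1: ggagtgcaTTTGGCGCcctgtgat
The same 8 bases were thus present at genes that were lower and at genes that were not. The Cdt1 window lies at chr8:122568039-122568062 (plus strand), with the match starting 33 bases into the transcript. The Mcm5 window lies at chr8:75109348-75109371 (plus), 153 bases upstream of the start. The Mcm7 window lies at chr5:138171852-138171875 (minus), 17 bases into the transcript. The Rfc3 window lies at chr5:151651203-151651226 (minus), 10 bases upstream. The Lig1 window lies at chr7:13278844-13278867 (minus), 27 bases into a transcript that starts inside the gene. Lig1 and Mcm7 also have windows at other starts, which held no consensus match. The Orc1 window lies at chr4:108579419-108579442 (minus), 27 bases upstream. The Pola1 window lies at chrX:93632278-93632301 (plus), 138 bases upstream. Distances are to the first base of the match in the direction of the gene.

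Mcm6, a helicase subunit, held 3 matches upstream of its start, of which 2 overlap on opposite strands. The 130 bases before its start, chr1:128359706-128359835 on the minus strand, are printed to show the overlapping pair and the other match together, and capitals mark the matches.
Mcm6: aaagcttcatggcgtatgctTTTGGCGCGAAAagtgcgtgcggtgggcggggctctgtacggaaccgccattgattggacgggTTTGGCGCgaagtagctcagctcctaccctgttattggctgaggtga
Over the 13 genes with a match there were 19 matches, 12 upstream of the start and 7 after it, and Mcm5 was the other gene with overlapping matches.

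Per kilobase of exon, the highest levels in untransformed cells were those of Rrm2 (212 CPM per kb), Pcna (81.5), Mcm4 (73.2), Mcm3 (66.6) and Mcm5 (63.4). Rrm2 encodes the regulated subunit of ribonucleotide reductase, which makes deoxynucleotides. E2f2 (1.06 CPM per kb), Orc1 (4.43) and Ccne1 (6.16) were the lowest. The E2f2 values rest on few reads, with a lowest count of 101 in a library. The spread between libraries, as the coefficient of variation, had a median over the 35 genes of 13.4% in untransformed, 34.3% in RasG12V, 6.25% in Cdk8 knockout and 6.93% in Cdk19 knockout cells.

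**Figure D1:**
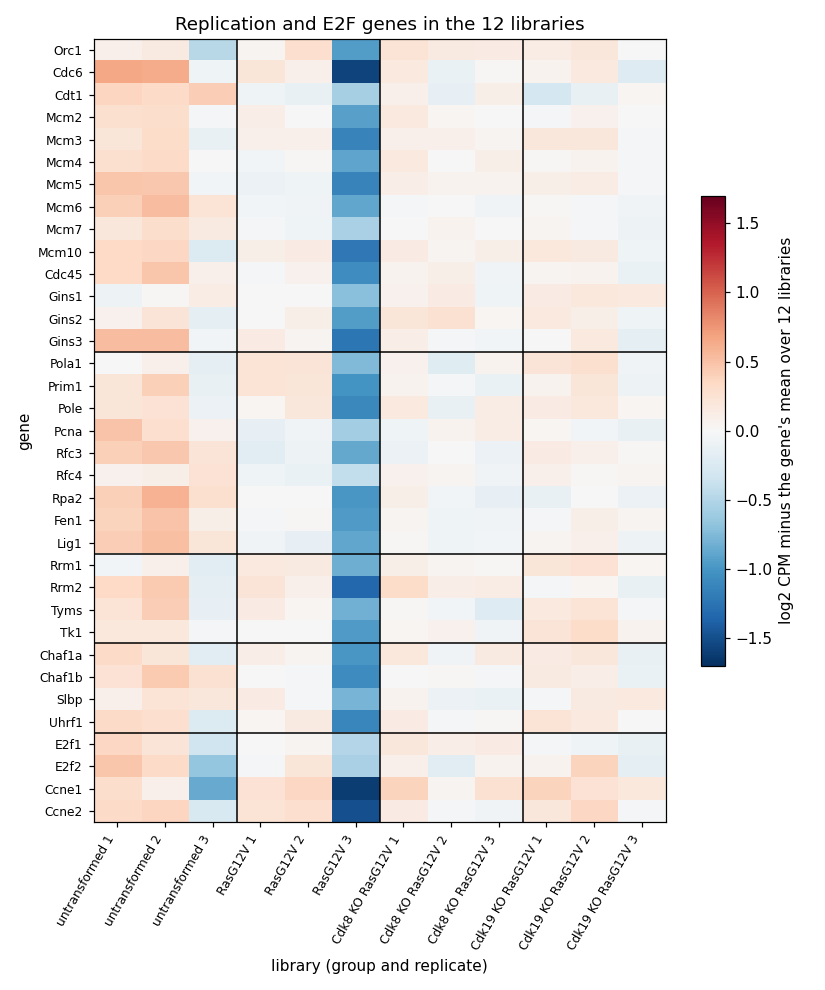
Log2 CPM of each of the 35 genes (rows, grouped by role) in each of the 12 libraries (columns), minus the gene's mean over the 12 libraries; red is above and blue below that mean. RasG12V replicate 3 forms a blue column, being the lowest of the 12 libraries for 34 of 35 genes, and untransformed replicates 1 and 2 are red for most.

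The first question was whether transformation by RasG12V changed this programme. Of the 35 genes, 10 were lower in RasG12V than in untransformed cells and 0 were higher, with all 12 libraries (edgeR, adjusted p under 0.05 over all genes tested). Among all genes tested 11.5% were lower. The genes that fell were Cdt1, Mcm5, Mcm6, Mcm7, Pcna, Rfc3, Rfc4, Rpa2, Fen1 and Lig1, which license origins or work in the helicase and at the fork. The median log2 fold change of the 35 was -0.365, against 0.00 for all genes tested, and it ranged from -0.707 to -0.011. For 12 genes every RasG12V library was below every untransformed one, against 16.2% of all genes. The count of 10 was 6 without untransformed replicate 1 or without untransformed replicate 2, and 1 when only these 2 groups were fitted. The fit of all 12 libraries shares its estimate of the spread with the knockouts. Their median coefficient of variation for the 35 genes was 6.25% (Cdk8) and 6.93% (Cdk19), against 34.3% in RasG12V and 13.4% in untransformed cells. Without both replicates 3, 22 of the 35 were lower and 0 were higher, against 21.0% lower among all genes, with a median of -0.259. All 10 genes named above were again among those 22. That fit also leaves out an untransformed library that was low for most of these genes. Leaving out RasG12V replicate 3 alone brought the median of the 35 to -0.09, where that of all genes tested was 0.017.

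**Figure D2:**
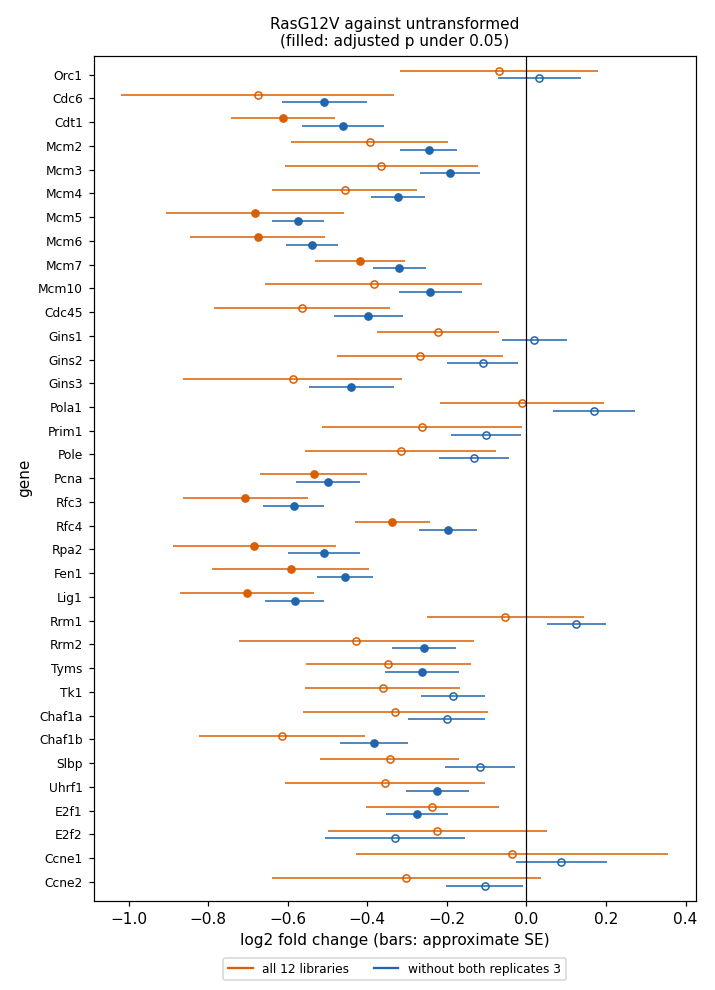
Log2 fold change of each gene in RasG12V against untransformed cells (x axis), with bars for the approximate standard error, from all 12 libraries (orange) and without both replicates 3 (blue); filled points have an adjusted p under 0.05. All 35 orange points lie below 0, and the blue points have shorter bars and lie nearer to 0 for most genes.

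Within licensing and origin firing, 4 of 14 genes were lower with 12 libraries and 11 without both replicates 3. Among all genes tested 11.5% and 21.0% were lower in these fits, and these shares stand beside the counts of each role. Cdt1, which brings the helicase to origins (chr8:122568015-122573554), stood at 47.1, 45.9 and 48.8 CPM in untransformed replicates 1 to 3 and at 34.9, 33.4 and 24.7 CPM in RasG12V. It stood at 38.9, 33.0 and 39.1 CPM in the Cdk8 knockout and 29.6, 33.5 and 37.5 in the Cdk19 knockout. All 9 transformed libraries were below all 3 untransformed ones. In RasG12V cells Cdt1 fell by 0.61 in log2 units (SE 0.13, adjusted p = 0.00462, edgeR), and by 0.46 (SE 0.10, adjusted p = 0.00137) without both replicates 3.

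Mcm6 (chr1:128331590-128359664) stood at 286, 310 and 253 CPM in untransformed libraries and at 208, 206 and 117 CPM in RasG12V. The knockouts held it at 210, 215 and 207 CPM (Cdk8) and 219, 210 and 206 CPM (Cdk19). The 8 transformed libraries other than RasG12V replicate 3 thus lay within a span of 206 to 219 CPM, under every untransformed library. Mcm6 fell by 0.68 in RasG12V cells (SE 0.17, adjusted p = 0.0123, edgeR) and by 0.54 (SE 0.07, adjusted p = 1.87e-06) without both replicates 3.

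Mcm5, another helicase subunit, stood at 282, 280 and 198 CPM in untransformed, 189, 192 and 92.1 in RasG12V, 219, 211 and 212 in Cdk8 knockout and 218, 222 and 200 in Cdk19 knockout libraries. Untransformed replicate 3 here lay below every knockout library, and above every RasG12V library. Mcm5 fell by 0.68 in RasG12V cells (SE 0.22, adjusted p = 0.0435, edgeR) and by 0.57 (SE 0.07, adjusted p = 7.65e-07) without both replicates 3. The smaller SE and p of the latter fit follow the removal of libraries that were both low for Mcm5. Mcm7 stood at 226, 244 and 219 CPM in untransformed, 193, 187 and 135 in RasG12V, 200, 205 and 199 in Cdk8 knockout and 205, 194 and 187 in Cdk19 knockout libraries, again with no overlap between untransformed and transformed cells. It fell by 0.42 in RasG12V cells (SE 0.11, adjusted p = 0.018, edgeR), and differed by -0.32 (adjusted p = 0.000792) without both replicates 3.

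The other helicase subunits had the same sign and did not pass with 12 libraries. Mcm4 had a log2 fold change of -0.46 (adjusted p = 0.0945, edgeR), Mcm2 of -0.39 (0.182) and Mcm3 of -0.36 (0.32) with 12 libraries, and all 3 were lower without both replicates 3. Cdc6, the loader that works with Cdt1, was chosen for its values: it stood at 86.5, 84.9 and 52.1 CPM in untransformed and at 63.3, 58.4 and 18.5 CPM in RasG12V libraries. Its difference of -0.68 had an SE of 0.34 (adjusted p = 0.187, edgeR), and it fell by 0.51 (adjusted p = 0.00102) without both replicates 3. Cdc45, Gins3 and Mcm10, which activate or accompany the helicase, had log2 differences of -0.56, -0.59 and -0.38 that did not pass with 12 libraries, and were lower, at -0.40, -0.44 and -0.24, without both replicates 3. Orc1, Gins1 and Gins2 passed neither test. Gins1 stood at 40.7, 43.7 and 47.0 CPM in untransformed and at 43.3, 43.2 and 26.4 CPM in RasG12V libraries, and at 45.3, 47.6 and 41.0 CPM in the Cdk8 and 47.3, 48.9 and 48.4 CPM in the Cdk19 knockout. Without both replicates 3 its log2 difference was 0.02, with a 95% interval of -0.14 to 0.18.

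**Figure D3:**
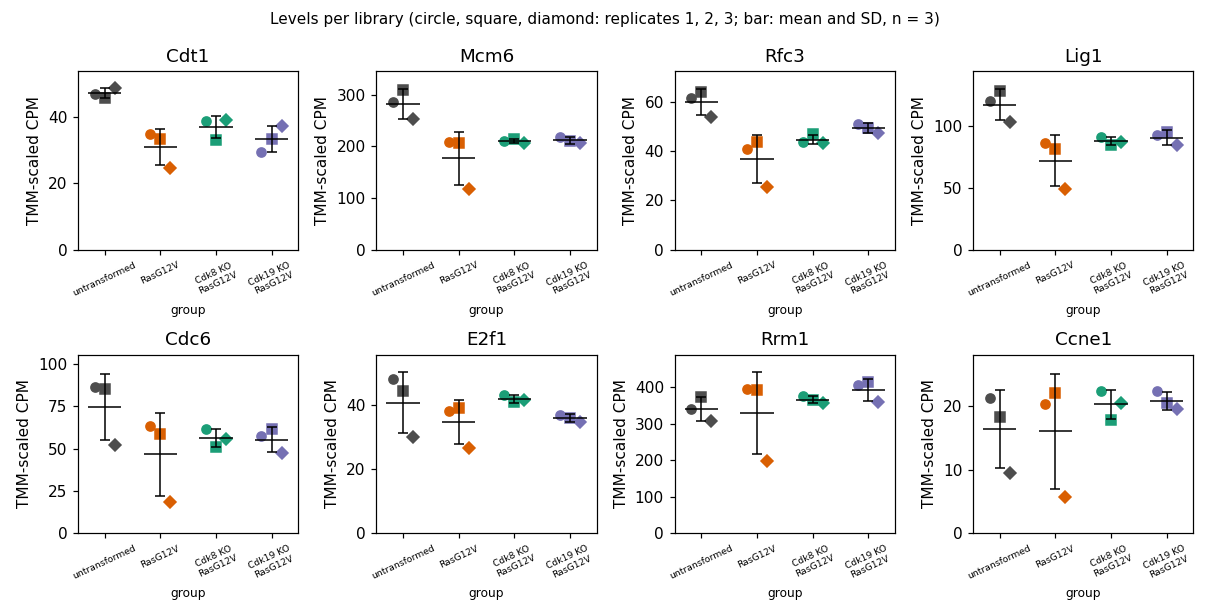
TMM-scaled CPM per library (y axis, from 0) in the 4 groups (x axis) for 8 genes; circles, squares and diamonds are replicates 1, 2 and 3, and bars give the mean and SD (n = 3). For Cdt1, Mcm6, Rfc3 and Lig1 all transformed libraries lie under all untransformed ones, whereas for Cdc6 and Rrm1 the groups overlap. The RasG12V diamond is the lowest point for each of the 8 genes.

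At the fork, 6 of 9 genes were lower in RasG12V cells with 12 libraries, against 11.5% of all genes tested. The same 6 were lower without both replicates 3, against 21.0%, in a fit that reuses the other libraries. Rfc3, a subunit of the loader that places the Pcna clamp (chr5:151642756-151651242), stood at 61.7, 64.1 and 53.9 CPM in untransformed and 40.9, 43.9 and 25.5 CPM in RasG12V libraries. It stood at 43.6, 46.8 and 43.4 CPM in the Cdk8 and 51.1, 49.4 and 47.4 CPM in the Cdk19 knockout. Every Cdk19 knockout library was thus above every RasG12V and Cdk8 knockout library and under every untransformed library. Rfc3 fell by 0.71 in RasG12V cells (SE 0.16, adjusted p = 0.00603, edgeR), or by 0.58 on the same scale without both replicates 3 (SE 0.08, adjusted p = 4.42e-06).

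Lig1, the ligase that seals Okazaki fragments (chr7:13277283-13311433), stood at 120, 128 and 103 CPM in untransformed and 86.2, 81.0 and 48.5 CPM in RasG12V libraries. The knockout libraries held 90.8, 84.7 and 86.8 CPM (Cdk8) and 92.1, 95.2 and 84.1 CPM (Cdk19), again all under the untransformed ones. Lig1 fell by 0.70 in RasG12V cells (SE 0.17, adjusted p = 0.0094, edgeR), and differed by -0.58 (adjusted p = 3.4e-06) without both replicates 3. Pcna, the sliding clamp, stood at 223, 195 and 169 CPM in untransformed, 146, 154 and 106 in RasG12V, 152, 166 and 174 in Cdk8 knockout and 164, 154 and 146 in Cdk19 knockout libraries. Its untransformed and RasG12V libraries did not overlap, and it fell by 0.54 (SE 0.13, adjusted p = 0.0121, edgeR), with a difference of -0.50 (adjusted p = 5.57e-05) without both replicates 3.

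Rfc4, also of the clamp loader, stood at 53.4, 54.4 and 59.9 CPM in untransformed, 48.1, 46.9 and 37.9 in RasG12V, 53.3, 52.2 and 48.7 in Cdk8 knockout and 53.8, 51.5 and 52.6 in Cdk19 knockout libraries. Here untransformed replicate 3 was the highest of the 12, and RasG12V cells were lower by a log2 difference of -0.34 (SE 0.09, adjusted p = 0.0209, edgeR). That difference was -0.20 (adjusted p = 0.0384) without both replicates 3. Rpa2, of the complex that coats single-stranded DNA, stood at 51.3, 58.6 and 46.7 CPM in untransformed, 39.0, 39.1 and 19.6 in RasG12V, 41.6, 37.7 and 35.3 in Cdk8 knockout and 35.6, 38.9 and 36.3 in Cdk19 knockout libraries. Rpa2 fell by 0.68 in RasG12V cells (adjusted p = 0.029, edgeR), and Fen1, which cuts Okazaki flaps, by 0.59 (adjusted p = 0.0475). Their differences without both replicates 3 were -0.51 and -0.46 (adjusted p = 0.000145 and 3.13e-05). The polymerase genes did not pass in either fit: Pola1, Prim1 and Pole had log2 differences of -0.01, -0.26 and -0.32 with 12 libraries and 0.17, -0.10 and -0.13 without both replicates 3. The clamp, its loader and the Okazaki enzymes thus passed the test where the priming and leading-strand polymerase genes did not, and the difference between these sets was not tested.

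None of the 4 nucleotide supply genes passed with 12 libraries, and Rrm2 and Tyms were lower without both replicates 3. Tk1, the thymidine kinase of S phase, stood at 72.2, 72.1 and 62.6 CPM in untransformed, 64.1, 64.2 and 32.9 in RasG12V, 65.5, 67.3 and 61.3 in Cdk8 knockout and 74.1, 79.3 and 66.5 in Cdk19 knockout libraries. Tyms, which makes thymidylate, stood at 118, 135 and 91.2 CPM in untransformed, 111, 103 and 57.4 in RasG12V, 102, 97.8 and 86.8 in Cdk8 knockout and 113, 118 and 99.1 in Cdk19 knockout libraries. For both genes the untransformed and RasG12V libraries overlapped. Rrm1, the large subunit of ribonucleotide reductase and chosen for its values, stood at 341, 372 and 308 CPM in untransformed, and at 395, 390 and 198 CPM in RasG12V libraries. Its RasG12V replicates 1 and 2 were above every untransformed library while replicate 3 was the lowest of the 12. Without both replicates 3 its log2 difference was 0.13 (95% interval -0.02 to 0.27, adjusted p = 0.192, edgeR), whereas its partner Rrm2 fell by 0.26 (adjusted p = 0.0144).

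Of the genes that copy chromatin behind the fork, none passed with 12 libraries, and Chaf1b and Uhrf1 were lower without both replicates 3. Chaf1b, a subunit of the histone chaperone CAF-1, stood at 90.7, 104 and 91.1 CPM in untransformed, 75.5, 75.2 and 36.2 in RasG12V, 76.4, 77.0 and 74.3 in Cdk8 knockout and 85.0, 82.4 and 70.8 in Cdk19 knockout libraries. All transformed libraries were below all untransformed ones, and the log2 difference in RasG12V cells was -0.61 (SE 0.21), with an adjusted p of 0.0516 (edgeR). Slbp, which binds the stem-loop of histone messages, stood at 78.3, 86.6 and 84.1 CPM in untransformed, 81.4, 72.2 and 42.8 in RasG12V, 76.8, 68.9 and 68.1 in Cdk8 knockout and 73.0, 82.1 and 83.0 in Cdk19 knockout libraries. These groups overlapped, and Slbp passed neither test (adjusted p = 0.189 and 0.309, edgeR).

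None of the 4 E2F and E cyclin genes passed with 12 libraries, and E2f1 was lower without both replicates 3. E2f1, an activating E2F that is itself a target of E2F, stood at 48.1, 44.1 and 29.8 CPM in untransformed, 38.0, 39.0 and 26.7 in RasG12V, 43.0, 40.7 and 41.5 in Cdk8 knockout and 36.9, 36.0 and 34.5 in Cdk19 knockout libraries. Its replicates 3 were the lowest of the 12 libraries. E2f1 had a log2 difference of -0.24 in RasG12V cells (SE 0.17, adjusted p = 0.354, edgeR), and fell by 0.28 (SE 0.08, adjusted p = 0.00784) without both. Ccne2, a cyclin that activates Cdk2 for entry into S phase, stood at 82.5, 84.3 and 54.8 CPM in untransformed, 76.8, 80.0 and 23.3 in RasG12V, 72.5, 64.0 and 63.0 in Cdk8 knockout and 74.7, 83.6 and 64.4 in Cdk19 knockout libraries. Its log2 difference was -0.30 (SE 0.34, adjusted p = 0.58, edgeR) and had the opposite sign, 0.10, when RasG12V replicate 3 alone was left out. Ccne1 and E2f2 passed neither test.

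Grouped by the promoter motif, the 13 genes with the E2F consensus had a median log2 difference of -0.587 in RasG12V cells and 6 were lower. The 17 without it had a median of -0.362 and 4 were lower, where 11.5% of all genes tested were lower. Without both replicates 3 the medians were -0.44 and -0.246, with 10 and 11 lower, against 21.0% of all genes. In RasG12V replicate 3 the median log2 ratios to replicates 1 and 2 were -0.975 with the consensus and -0.987 without it. These are descriptions of a list split, and the difference was not tested.

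In RasG12V replicate 3 the drop reached every one of the 35 genes but was uneven. Relative to the mean of RasG12V replicates 1 and 2, the median log2 ratio was -0.987, from -1.91 for Ccne1 to -0.325 for Rfc4. In linear terms Ccne1 was at 0.267, Ccne2 at 0.297, Cdc6 at 0.304 and Rrm2 at 0.356 of the level in the other replicates, and Rfc4 at 0.798, Cdt1 at 0.723, Mcm7 at 0.710 and Pcna at 0.708. The ratio was at or under 0.6 for 27 of 35 genes, against 9.75% of all genes tested. This library was the lowest of the 12 for 34 of 35, E2f2 being the exception, against 18.9% of all genes.

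In untransformed replicate 3 the median log2 ratio to replicates 1 and 2 was -0.323, from -1.06 for E2f2 to 0.16 for Gins1, and 31 of 35 genes were below. It was the lowest of its group for 30 of 35 genes, against 40.6% of all genes. Ccne1 and Cdc6 were among the genes furthest down in both replicates 3, and Rfc4 and Cdt1 among the least affected. Across the 35 genes the ratios in the replicates 3 had a Pearson r of 0.591 and a Spearman rho of 0.594, which is given as a description because genes of a library share its cells and depth.

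**Figure D4:**
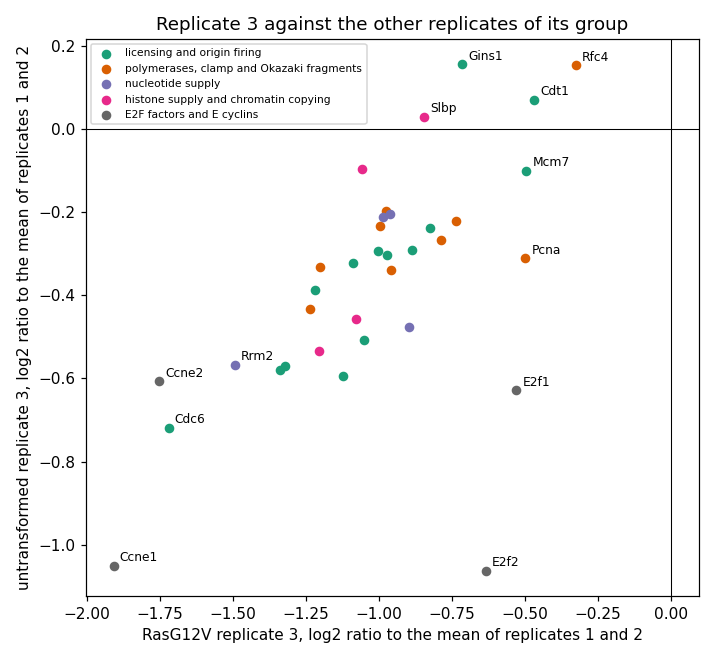
Log2 ratio of replicate 3 to the mean of replicates 1 and 2 for each of the 35 genes, in RasG12V (x axis) and untransformed cells (y axis), coloured by role. All points lie left of 0 and 31 lie below 0; Ccne1 is lowest on the x axis and Rfc4 is nearest to 0 on it.

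Other genes moved with RasG12V replicate 3, and their part in the results was not tested. The 25 genes of G2 and mitosis were all below replicates 1 and 2 there, with a median log2 ratio of -0.857, and summed to 3160 CPM against 5623 and 5766. In untransformed replicate 3 their median was -0.149. The 12 CDK inhibitor and D cyclin genes had a median of 0.07 in RasG12V replicate 3, the liver progenitor markers 0.453 and the 4 macrophage and leukocyte markers that passed the filter 0.71. Cdkn2b, an inhibitor of the cyclin D kinases, stood at 91.1 CPM in RasG12V replicate 3 against 51.4 and 47.2 CPM, and Cdkn1a, the p21 inhibitor, chosen for its values, at 392 against 383 and 368 CPM. The 17 tested genes of the histone clusters, which are transcribed in S phase, did not move as a group there: 8 of 17 were below replicates 1 and 2, with a median log2 ratio of 0.139 and a range from -1.58 to 1.33. Their sum was 64.6 CPM there and 39.0 to 47.7 CPM in the other 11 libraries. These are low levels, and reads mapping to several places, 23.0% to 26.3% of reads in a library, were not counted. The 17 genes may therefore not stand for histone RNA as a whole. The share of gene counts from mitochondrial genes was also the highest in RasG12V replicate 3, at 1.92% against 1.18% to 1.54% elsewhere.

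The knockouts of Cdk8 and Cdk19 were compared with RasG12V cells to ask what each Mediator kinase adds in transformed cells. Against RasG12V, 0 of 35 genes passed in the Cdk8 knockout, as did 0.0% of all genes tested. Of the 35, 1 had an unadjusted p under 0.05. In the Cdk19 knockout 0 of 35 passed, where 0.007% of all genes were higher and 0.007% lower. There 4 of the 35 had an unadjusted p under 0.05. All 35 log2 differences were above 0 in both comparisons, with medians of 0.267 (Cdk8) and 0.263 (Cdk19) against -0.009 and -0.006 for all genes. The comparisons share the RasG12V libraries, and without both replicates 3 the medians were 0.011 and 0.021. DESeq2 also called 0 of 35 in either comparison.

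The standard errors without both replicates 3 were smaller and 0 of 35 genes passed in either knockout. There 1.18% (Cdk8) and 1.11% (Cdk19) of all genes were higher, and 0.414% and 0.897% were lower. The log2 differences lay between -0.24 and 0.172 for the Cdk8 and between -0.184 and 0.224 for the Cdk19 knockout, with 4 and 6 genes at an unadjusted p under 0.05. For Lig1, which differed by -0.58 between RasG12V and untransformed cells in that fit, the 95% interval of Cdk19 knockout minus RasG12V was -0.01 to 0.25. The same interval lay above 0 for Rfc3 (0.09 to 0.36), Mcm5, Tk1, Rfc4 and Gins1, and below 0 for Rrm2 (-0.33 to -0.04). These intervals are not adjusted for the number of genes. The genes with the smallest adjusted p with 12 libraries were Rfc4, Pcna, Mcm7, Cdt1 and Mcm5 for Cdk8, and Rfc3, Rfc4, Gins1, Tk1 and Lig1 for Cdk19. Rfc3 in the Cdk19 knockout had a log2 difference of 0.43 (SE 0.16, adjusted p = 0.553, edgeR) with 12 libraries and 0.22 (SE 0.07, adjusted p = 0.113) without both replicates 3. Mcm5 in the Cdk8 knockout had 0.44 (SE 0.22, adjusted p = 0.842) and 0.17 (SE 0.06, adjusted p = 0.131). Tk1 in the Cdk19 knockout had 0.45 (SE 0.19, adjusted p = 0.638) and 0.20 (SE 0.07, adjusted p = 0.188).

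**Figure D5:**
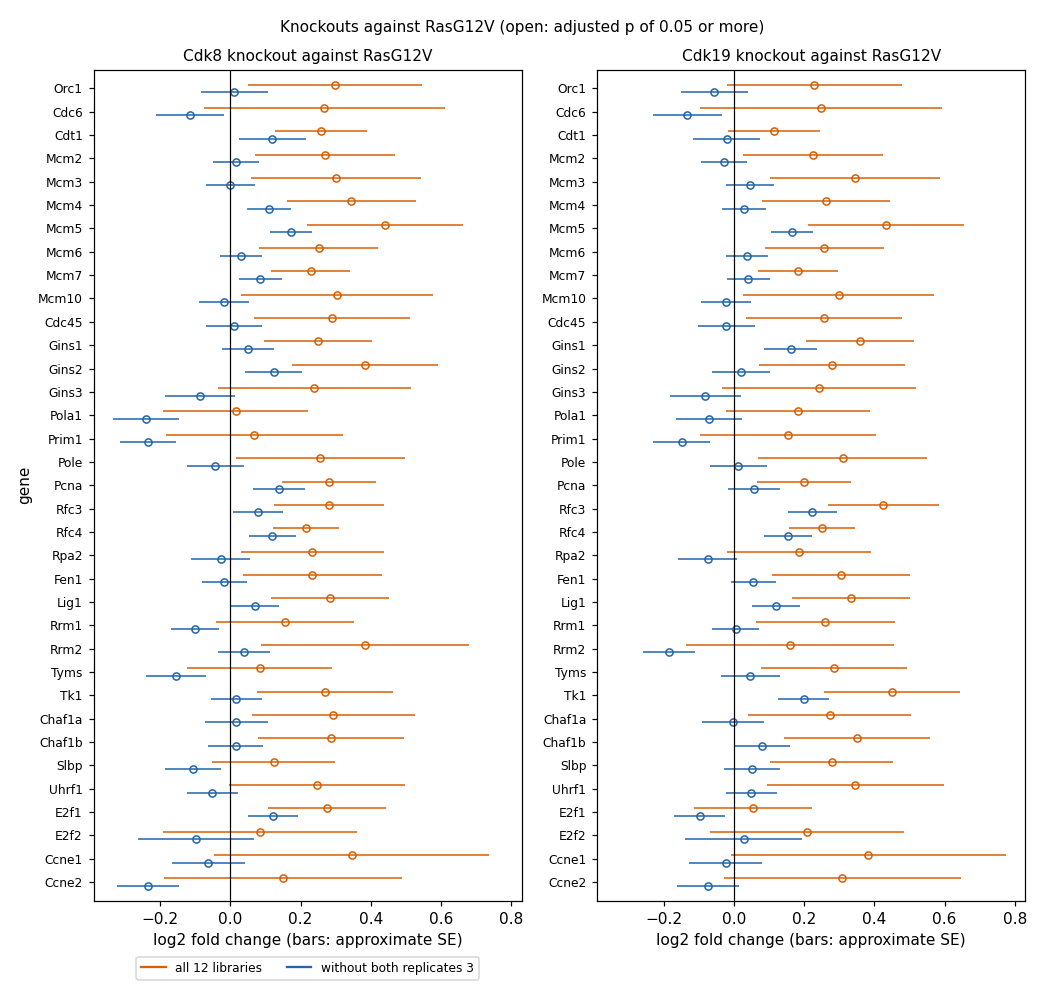
Log2 fold change of each gene in the Cdk8 knockout (left) and the Cdk19 knockout (right) against RasG12V cells (x axis), with bars for the approximate standard error, from all 12 libraries (orange) and without both replicates 3 (blue); open points did not pass the test. The orange points lie right of 0 around medians of 0.267 and 0.263 and the blue points gather around 0.

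Between the knockouts, which share no library that stood apart, 0.077% of all genes were higher and 0.028% lower in the Cdk8 knockout with 12 libraries. Of the 35 genes 0 passed, and 0 had an unadjusted p under 0.05. DESeq2 also called 0. The median log2 difference was -0.034. E2f1 and Rrm2 were higher in every Cdk8 than in every Cdk19 knockout library, and Rfc3 was lower, against 11.1% higher and 9.59% lower among all genes. E2f1 had a log2 difference of 0.22 with 12 libraries (SE 0.17, adjusted p = 0.917, edgeR) and rose by 0.22 (SE 0.06, adjusted p = 0.0497) without both replicates 3, where 3.59% of all genes were higher and 1.72% lower. Rrm2 also had 0.22 there, with an adjusted p of 0.0534. The size of the E2f1 difference was the same in both fits, and the estimate of the spread differed. Tk1 and Tyms had log2 differences of -0.18 and -0.20, with adjusted p of 0.119 and 0.14 without both replicates 3.

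Set against untransformed cells, 12.3% of all genes were higher and 12.2% lower in the Cdk8 knockout with 12 libraries. Of the 35 genes 0 passed (edgeR). There 5 genes had an unadjusted p under 0.05, and DESeq2 called 1 lower. In the Cdk19 knockout 1 gene, Cdt1, was lower, where 12.4% of all genes were higher and 12.9% lower. It fell by 0.50 (SE 0.13, adjusted p = 0.0139, edgeR), with adjusted p of 0.0815 and 0.0554 without Cdk19 knockout replicates 1 and 2. Cdt1 had a log2 difference of -0.35 in the Cdk8 knockout (SE 0.13, adjusted p = 0.0665). The counts without both replicates 3 were 24 of 35 lower (Cdk8 knockout) and 20 (Cdk19 knockout), where 22.3% and 22.5% of all genes were lower and 19.9% and 21.1% higher, with medians of -0.26 and -0.273. These counts rest in part on leaving out an untransformed library that was low for these genes. Leaving out untransformed replicate 3 alone gave 0 and 2 lower, with medians of -0.249 and -0.264. Leaving out RasG12V replicate 3 alone, which is in neither of the groups compared, gave 8 and 10 lower, with medians of -0.117 and -0.094.

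In these 10 libraries, with the same dependence on the library left out, 18 of the 35 genes were lower in all 3 transformed groups, where 0 were with 12 libraries, and 9 (Orc1, Gins1, Gins2, Pola1, Pole, Rrm1, Tk1, Chaf1a and Ccne1) in none. Mcm6 fell by 0.51 in the Cdk8 knockout (SE 0.06, adjusted p = 8.87e-07, edgeR) and by 0.50 in the Cdk19 knockout (SE 0.06, adjusted p = 9.81e-07), beside 0.54 in RasG12V cells. Rpa2 fell by 0.54 and 0.58 beside 0.51. These comparisons share the untransformed libraries. With every library kept, all 9 transformed libraries were below all 3 untransformed ones for 8 genes (Cdt1, Mcm6, Mcm7, Rfc3, Rpa2, Fen1, Lig1 and Chaf1b), against 11.5% of all genes. With both replicates 3 set aside, a choice that bears on the count, the other 8 transformed libraries were below untransformed replicates 1 and 2 for 23 of 35 genes, against 23.4% of all genes.

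Other genes of the same pathways gave mixed directions in RasG12V against untransformed cells, where 11.9% of all genes were higher and 11.5% lower. Of 17 other licensing and firing genes 3 were lower (Mcm9, Gins4 and Gmnn) and 1 higher. Gmnn, which encodes the Cdt1 inhibitor geminin, fell by 0.51 (adjusted p = 0.039, edgeR), and the origin recognition gene Orc3 rose by 0.26 (adjusted p = 0.0382). Of 25 other fork genes 5 were lower and 1 higher. Dscc1, of a cohesion-linked clamp loader, fell by 0.97 (adjusted p = 0.00431), Pold1, the catalytic subunit of the lagging-strand polymerase, by 0.58 (0.0201) and Rfc2 by 0.41 (0.0204).

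Pold4, the smallest subunit of that same polymerase, went the other way. It stood at 37.0 CPM in each of the 3 untransformed libraries, 74.7, 73.4 and 96.7 CPM in RasG12V, 88.5, 89.3 and 84.1 in the Cdk8 knockout and 69.8, 58.4 and 68.6 in the Cdk19 knockout. All 9 transformed libraries were above the untransformed ones, and Pold4 rose by 1.14 in RasG12V cells (SE 0.11, adjusted p = 1.21e-05, edgeR). It was the highest in RasG12V replicate 3 of all 12 libraries, where the 35 genes were lowest. Of 11 other nucleotide synthesis genes 1 was higher and 0 lower: Rrm2b, the p53-inducible small subunit of ribonucleotide reductase, rose by 0.52 (adjusted p = 0.00758).

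Of 12 other chromatin copying genes 2 were lower, Tonsl by 0.75 (adjusted p = 0.0155, edgeR) and the histone chaperone Asf1a by 0.26 (0.029). Asf1a had an adjusted p of 0.0782 without both replicates 3. Of 20 other E2F and pocket protein genes, Tfdp2, a dimer partner of E2F proteins, was lower: it stood at 82.5, 78.2 and 94.7 CPM in untransformed and at 50.5, 53.8 and 52.0 CPM in RasG12V libraries. Tfdp2 fell by 0.71 (SE 0.08, adjusted p = 6.21e-05), and its RasG12V replicate 3 lay between the other replicates. E2f5, a repressor E2F, rose by 0.38 (adjusted p = 0.0082).

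Of 25 genes of G2 and mitosis, 1 was lower with 12 libraries, Aurkb, and 0 were higher. Without both replicates 3, 6 were higher and 1 lower, against 19.0% and 21.0% of all genes, and the median of the list was 0.065 where that of the 35 replication genes was -0.259. Cenpe, a kinetochore motor, rose by 0.55 there (adjusted p = 0.000643, edgeR). The medians of these 2 lists depend on the libraries left out, which were chosen for low values of the 35 genes. Untransformed replicate 3 had a median log2 ratio of -0.323 for the 35 and -0.149 for the mitosis genes. The difference between the lists was not tested. Of 12 CDK inhibitor and D cyclin genes 4 were higher and 2 lower. Cdkn2b rose by 0.84 (adjusted p = 0.0144), Cdkn2a by 0.60 (0.0273) and Cdkn1c by 2.16 (0.00153), the latter from 0.165 to 0.770 CPM, and Cdkn2c fell by 0.91 (0.00701). Cdkn1a stood at 389 ± 19.3 CPM in untransformed and 381 ± 12.2 CPM in RasG12V cells (SD, n = 3) and did not pass (adjusted p = 0.795).

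Over the 10 libraries without both replicates 3, the counts in these lists were 7 lower and 3 higher for other licensing genes, 11 and 1 for other fork genes, 2 and 3 for other nucleotide synthesis genes, 2 and 0 for other chromatin copying genes, 8 and 1 for other E2F and pocket protein genes, and 3 and 4 for CDK inhibitors and D cyclins. Among all genes tested in RasG12V against untransformed cells, 21.0% were lower and 19.0% higher in this fit. The libraries left out were chosen for low values of the replication genes, so these counts depend on that choice. The genes of these lists named above as lower or higher with 12 libraries passed again in the same direction, except Asf1a. Gmnn had a log2 difference of -0.32 there, Dscc1 of -0.96, Pold4 of 0.99, Tfdp2 of -0.64 and Cdkn2b of 0.61.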

How the data were processed

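The deposited files hold gene counts per library. Per the submitters' processing notes, the authors used FastQC and STAR 2.6.0a with GRCm38.p6; which annotation was counted is not given in the sources used here. Libraries came from rRNA-depleted RNA and a TruSeq kit, per the labels. The reverse-strand count column was used because its total was 24.7 to 28.9 times that of the forward column. Reads without a gene, 33.0% to 34.8%, were left out. Symbols and exon lengths came from GENCODE M21 (54079 of 54146 identifiers matched). Counts were fitted with edgeR 4.0.16 in R 4.3.3: filterByExpr, TMM, robust glmQLFit and glmQLFTest over all 12 libraries, Benjamini-Hochberg adjustment over 14283 genes, threshold 0.05. The fit without both replicates 3 tested 14493 genes. The approximate SE is the absolute log2 fold change over the square root of F, and 95% intervals are 1.96 SE to each side. The script was tested on simulated counts. Levels are CPM scaled by TMM. DESeq2 1.42.0, other scaling and filters, the unstranded column, a replicate block, 2-group fits and leaving out each library were alternatives. Figures used matplotlib 3.10.9.

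Every member may be named. Values in each library were given for the 2 members of each role with the smallest adjusted p in RasG12V against untransformed cells, and for the 5 with the smallest adjusted p in each knockout comparison; other lists gave up to 4 genes each. Members and lists were chosen with earlier results of these data known. Promoters for Gins1, Gins2, Mcm4, Pole and Ccne2 were not used here. Reads carried no molecular identifiers, and reads mapping to several places were not counted.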

Additional observations from a re-analysis of the deposited data

How the results depend on the processing

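With 10 of the 35 genes lower in RasG12V than in untransformed cells, the count was 1 with only the 2 groups in the fit, 22 without both replicates 3 and 6 to 12 when each library was left out in turn. It was 6 without untransformed replicate 1 or replicate 2. The median log2 difference of -0.365 ranged from -0.534 to -0.09 when each library was left out, the latter without RasG12V replicate 3. For Ccne2 the difference ranged from -0.548 to 0.102 when each library was left out, with the opposite sign, 0.102, without RasG12V replicate 3; the cause was not tested. With 0 lower in the Cdk8 knockout against untransformed cells, the count was 3 with no filter on low counts, 1 with DESeq2, 7 with only the 2 groups, 24 without both replicates 3 and 0 to 8 leaving out each library. With 1 lower in the Cdk19 knockout, it was 2 with no filter, 7 with only the 2 groups, 20 without both replicates 3 (median -0.273) and 0 to 10 leaving out each library (higher, 0 to 1). It was 0 without Cdk19 knockout replicate 1 or replicate 2. The count of genes higher in the Cdk8 than in the Cdk19 knockout was 1 without both replicates 3. Against RasG12V the medians ranged from 0.012 to 0.403 (Cdk8) and 0.016 to 0.439 (Cdk19) leaving out each library, lowest without RasG12V replicate 3. The looser E2F core was in 21 promoters. The genes whose values in each library were chosen by adjusted p gave 10 results in RasG12V against untransformed cells and 5 in each of the other comparisons. Of their 700 values under an alternative, other genes not included, 648 kept their direction and side of the threshold, 46 newly passed, 5 no longer passed and 1 reversed.

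Deviations from the group means were compared between same-numbered samples of different groups. Their correlations lay between -0.168 and 0.282, and 5 of 12 samples correlated best with their own number. Whether same-numbered samples were handled together is not given in the labels and was not tested. With a replicate block, 14 genes were lower in RasG12V cells (median -0.411) and 2 in the Cdk8 knockout against untransformed cells.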
